A study of Homo sapiens with 9 samples.

Results

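CD99, the podocalyxin family and a set of other glycoproteins of the cell surface were followed in ribosome profiling data from Huh-7 cells, a line of human hepatocellular carcinoma. The genes were taken by name: CD99, CD99L2, PODXL2, PODXL, CD44, BSG, CD59, CD46 and CD47, 9 in all. Of these, 7 had a row among the 9221 transcripts listed in either of the tables used, and each of the 7 was in both tables. PODXL and CD44 have no values below, and their reads were not analysed here. The set was built around CD99 and PODXL2, which were chosen by their log2 ratios of compound mean to vehicle mean in these same data, so those ratios are given below as a description and without a test.

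Ribosome-protected fragments had been sequenced from cells treated for 1 hr with 1.5 µM PF8503, with 1.5 µM PF846 or with vehicle (0.5% DMSO), with 3 biological replicates of each, 9 libraries in total. Both compounds are small molecules known to stall translation of particular nascent chains, and the question put to each transcript was whether fewer ribosomes were found beyond the point of a possible stall. All cells were rinsed and lysed in cycloheximide. Reads had been counted downstream of the codon where the cumulative profiles of compound and vehicle differed most if that difference was large, and otherwise from 10 codons after the start, in both cases without the last 10 codons. Each table gave 1 mean of normalized counts for vehicle and 1 for the compound. Since only these means were used, none of the values below has an error, and differences cannot be set against the spread between replicates. The label of the cells was checked against marker genes: 10 of 10 hepatocyte and hepatoma markers were listed, with vehicle means from 1249 to 212970, while 1 of 5 leukocyte markers (CD68), 1 of 3 endothelial markers (PECAM1) and 0 of 4 fibroblast markers were.

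Proteins of the cell surface are made on ribosomes docked at the endoplasmic reticulum. A hydrophobic signal peptide at the N-terminus leads the nascent chain out of the exit tunnel and into the translocon, and sugars are added to the chain from then on. CD99 is a small type I membrane protein with a part in leukocyte transmigration and cell adhesion. CD99L2 is its relative. PODXL2, also called endoglycan, is a sialomucin of the CD34 and podocalyxin family that can act as a selectin ligand. The other genes encode surface proteins of several kinds. BSG (basigin) chaperones monocarboxylate transporters, CD59 and CD46 protect cells from complement, and CD47 gives the signal that holds back phagocytosis through SIRPA.

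The ribosome reads of CD99 and PODXL2 were lower with both compounds. Those of CD99L2, BSG, CD59 and CD46 lay close to vehicle with both, while CD47 was close with PF8503 and lower with PF846 (log2 -0.28). The beginnings of the coding sequences are shown for the pair of low genes, for the CD99 relative that was not low, and for CD47. Each line gives the first 35 codons from the start codon, 5′ to 3′ on the coding strand, and capitals mark the codons of the 8 consecutive residues with the highest mean hydropathy on the Kyte-Doolittle scale.

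CD99: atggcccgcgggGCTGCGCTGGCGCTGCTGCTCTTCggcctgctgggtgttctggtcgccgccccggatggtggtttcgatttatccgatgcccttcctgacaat
PODXL2: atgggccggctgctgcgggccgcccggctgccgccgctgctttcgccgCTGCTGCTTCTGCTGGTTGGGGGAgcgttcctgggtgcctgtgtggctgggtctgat
CD99L2: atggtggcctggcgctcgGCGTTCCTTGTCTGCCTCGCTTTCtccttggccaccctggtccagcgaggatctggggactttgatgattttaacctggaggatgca
CD47: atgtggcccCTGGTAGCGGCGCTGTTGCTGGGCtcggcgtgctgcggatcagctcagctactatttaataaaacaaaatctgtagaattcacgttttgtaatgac

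In GRCh38, CD99 (ENSG00000002586) lies on the plus strand of chromosome X at chrX:2691295-2741309, in the pseudoautosomal region that X shares with Y, and each table has 1 row for it. The 35 codons shown come from exon 1 (chrX:2691361-2691427), exon 2 (chrX:2714422-2714454) and exon 3 (chrX:2717605-2717609) of 10 exons. PODXL2 (ENSG00000114631) lies on the plus strand at chr3:127629185-127672802, with the codons shown in exon 1 (chr3:127629220-127629289) and exon 2 (chr3:127639245-127639279) of 8. CD99L2 (ENSG00000102181) lies on the minus strand at chrX:150766336-150898668 and CD47 (ENSG00000196776) on the minus strand at chr3:108043091-108091031. The 4 coding sequences hold 185, 605, 262 and 323 codons in the order CD99, PODXL2, CD99L2 and CD47. Within the hydrophobic run that marks a signal peptide, the peak lay farther from the start in PODXL2 than in the others, whose peaks overlapped. The most hydrophobic stretch covered residues 5 to 12 of CD99, 17 to 24 of PODXL2, 7 to 14 of CD99L2 and 4 to 11 of CD47.

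The authors' mean for CD99 was 1377 normalized counts with vehicle and 701 with PF8503. In the PF846 table it was 1260 with vehicle and 721 with PF846. CD99 reads were thus at 50.9% of vehicle with PF8503 and 57.2% with PF846, or -0.97 and -0.81 on the log2 scale. In a bulk lysate, fewer ribosomes on each mRNA, less of the mRNA per cell and fewer cells making it cannot be told apart. Few transcripts were lower: CD99 stood 25th from the lowest of 9157 ratios with PF8503 and 19th of 8839 with PF846. Among transcripts of similar level, the fourth of 5 equal bands, the central 95% of ratios ran from -0.24 to 0.22 with PF8503 and from -0.15 to 0.13 with PF846. CD99 was outside that range with both. Where counting began at the codon of largest difference, the region itself was chosen from compound and vehicle reads. Ranks and ranges, here and for PODXL2 below, may set such a region beside regions counted from 10 codons after the start. Whether the CD99 region was of this kind was not determined.

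PODXL2 had a mean of 725 with vehicle against 334 with PF8503, and of 679 with vehicle against 480 with PF846. It was at 46.1% of vehicle with PF8503 (log2 -1.12, 17th lowest) and at 70.7% with PF846 (log2 -0.50, 35th lowest). PODXL2 was thus lower than CD99 with PF8503 and higher than CD99 with PF846. The central 95% for transcripts of its level was -0.26 to 0.24 with PF8503 and -0.15 to 0.13 with PF846, and PODXL2 lay beyond both ranges.

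**Figure D1:**
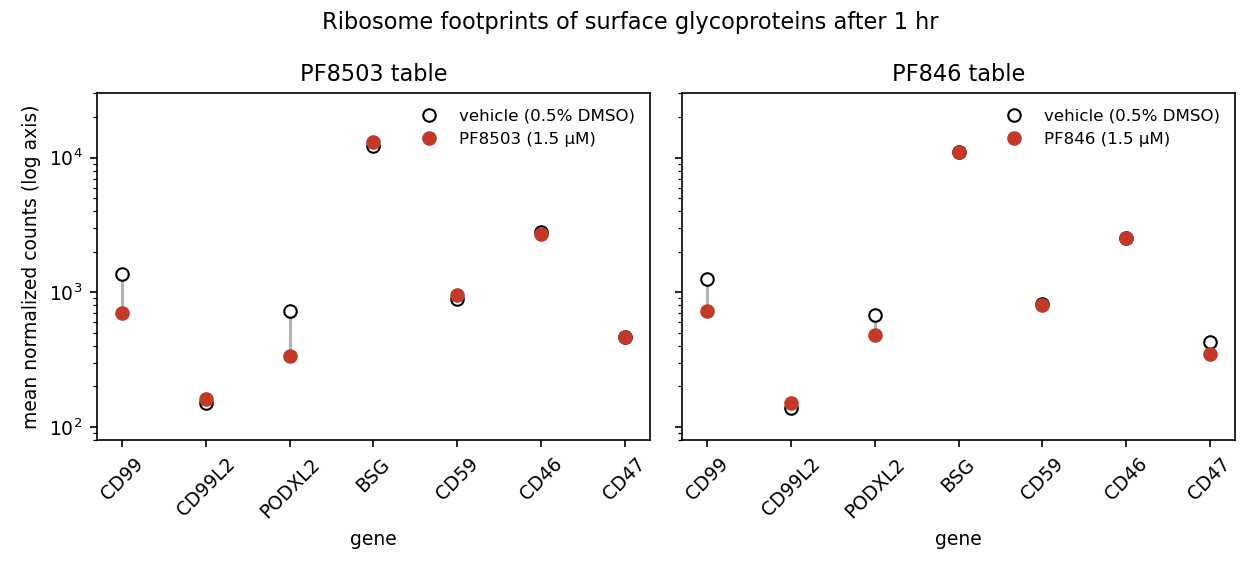
Authors' mean normalized counts (log axis) of the 7 genes with vehicle (open circles) and compound (filled circles), in the PF8503 table (left) and the PF846 table (right), joined by a grey line. There are no error bars because only means were used. CD99 is at 701 against 1377 (PF8503) and 721 against 1260 (PF846), PODXL2 at 334 against 725 and 480 against 679, while for BSG, CD59, CD46 and CD99L2 the circles nearly coincide.

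The relative of CD99 did not share its low reads. CD99L2 had a mean of 150 with vehicle and 160 with PF8503 (log2 0.091), and of 138 with vehicle and 151 with PF846 (log2 0.13). The CD99 and CD99L2 proteins were identical at 73 of 158 aligned residues (46.2%). Within the first 35 residues they were identical at 14 of 30 (46.7%), while CD99 and PODXL2, from different families, were identical at 12 of 23 (52.2%), so that value does not mark relatives. CD99L2 was the least read of the 7 genes, and the central 95% of transcripts at its level ran from -0.33 to 0.29 with PF8503 and from -0.30 to 0.31 with PF846, the widest among the 7. For PODXL2, the relative in the same family was PODXL, which had 153 identical residues of 496 aligned (30.8%). Over the whole proteins, CD99 and PODXL2 gave 54 of 175 (30.9%), a like percentage over far fewer aligned residues. Columns with a gap were left out of the count, so these percentages do not rank the pairs by relatedness.

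CD47 had means close to vehicle in one table and below vehicle in the other. Its mean was 464.7 with vehicle and 464.6 with PF8503, a log2 ratio of -0.00041. In the PF846 table it was 425 with vehicle and 350 with PF846, 82.4% of vehicle, a log2 ratio of -0.28. That put CD47 137th from the lowest of all 8839 transcripts and 9th of the 1767 of similar level, whose central 95% ran from -0.18 to 0.15.

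BSG, the most read gene of the set, had means of 12128 with vehicle and 12977 with PF8503 (log2 0.098), and of 11100 and 10961 in the PF846 table (log2 -0.018). CD59, a small GPI-anchored protein, had 893 with vehicle and 961 with PF8503 (log2 0.10), against 818 and 805 with PF846 (log2 -0.022). CD46, a type I membrane protein with complement control repeats, had 2786 and 2719 with PF8503 (log2 -0.035), and 2550 and 2519 with PF846 (log2 -0.017). All 3 lay within the central 95% of transcripts of their level with each compound.

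Counted together, 2 of 7 genes (28.6%) were lower by at least 0.5 on the log2 scale with PF8503, where 1.08% of all 9157 transcripts were, and 2 of 7 with PF846, where 0.396% of 8839 were. The 2 were CD99 and PODXL2 in both cases. None of the 7 was higher by that size, against 0.24% of all transcripts with PF8503 and 0.0792% with PF846. Since CD99 and PODXL2 led to the choice of the set, nothing is read from these shares. PODXL2 with PF846, at -0.5006, sat on the limit. The median of the 7 log2 ratios was -0.00041 with PF8503 and -0.022 with PF846, beside 0.013 and 0.00086 over all transcripts.

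**Figure D2:**
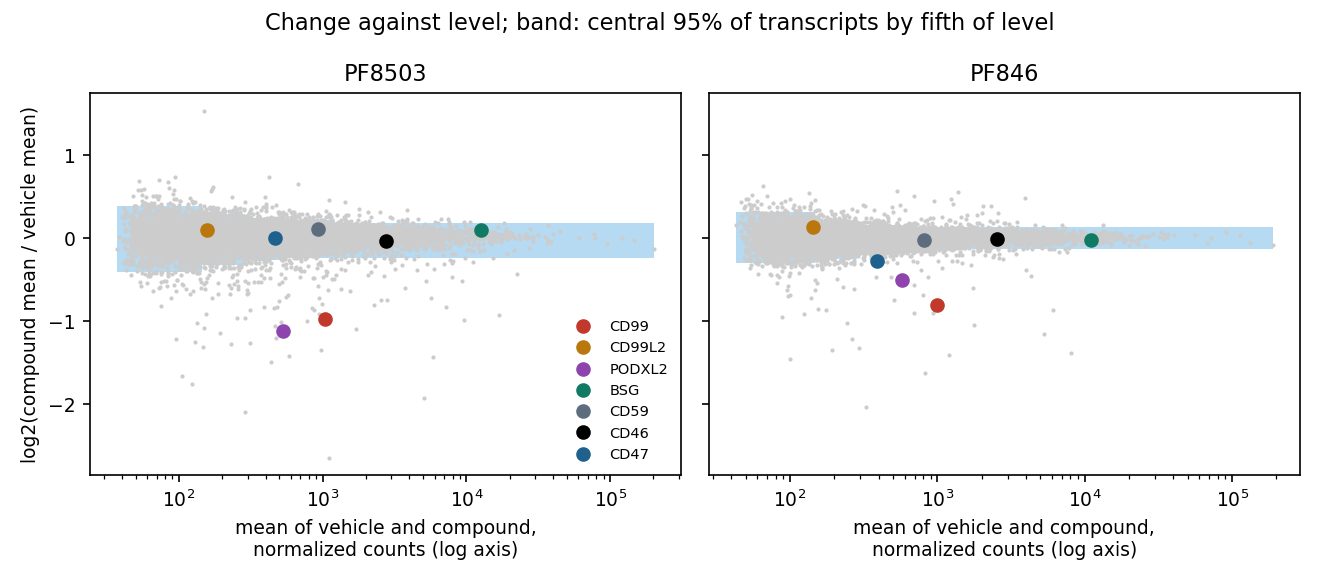
Log2 of compound over vehicle mean against the mean of both (log axis) for all transcripts (grey) with PF8503 (left, n = 9157) and PF846 (right, n = 8839); blue marks the central 95% of ratios within each of 5 bands of level, and coloured points are the 7 genes. CD99 and PODXL2 lie under the blue band in both panels, and CD47 lies under it with PF846 (-0.28) and inside it with PF8503 (-0.00041).

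The pair of compounds was used at the same dose and time, and both tables share the vehicle libraries, so the values stand side by side and no correlation between them is given. That the vehicle libraries are shared shows in the means themselves: the vehicle mean of the PF8503 table was 1.09 times that of the PF846 table for 8643 of 8775 common transcripts (98.5%), to within 0.01 on the log2 scale. Where the ratio departed from 1.09, different codons had been counted for the compounds. Among the 7 genes this was so for PODXL2 alone, whose region was shorter with PF8503 and held 97.8% of the vehicle reads counted for PF846. CD99 and the other 5 had been counted over the same region with both.

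PODXL2 had the largest difference between the compounds among the 7, being lower with PF8503 than with PF846 by 0.62 on the log2 scale. Its log2 difference of -0.62 was 61st from the lowest of 8775 transcripts, but over regions that differ, as given above. What the codons counted only for PF846 contributed to it was not tested. CD47 was the opposite case, higher with PF8503 by 0.28, a value that exceeded that of 97.8% of transcripts. The central 95% of these differences over all transcripts was -0.30 to 0.27, and both genes were outside it. CD99 differed by -0.17, CD99L2 by -0.038, CD46 by -0.018, BSG by 0.12 and CD59 by 0.13, all inside. No interval can be put on any of these differences, so neither a difference in response nor a like response to PF8503 and PF846 is shown for any of the 7 genes.

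**Figure D3:**
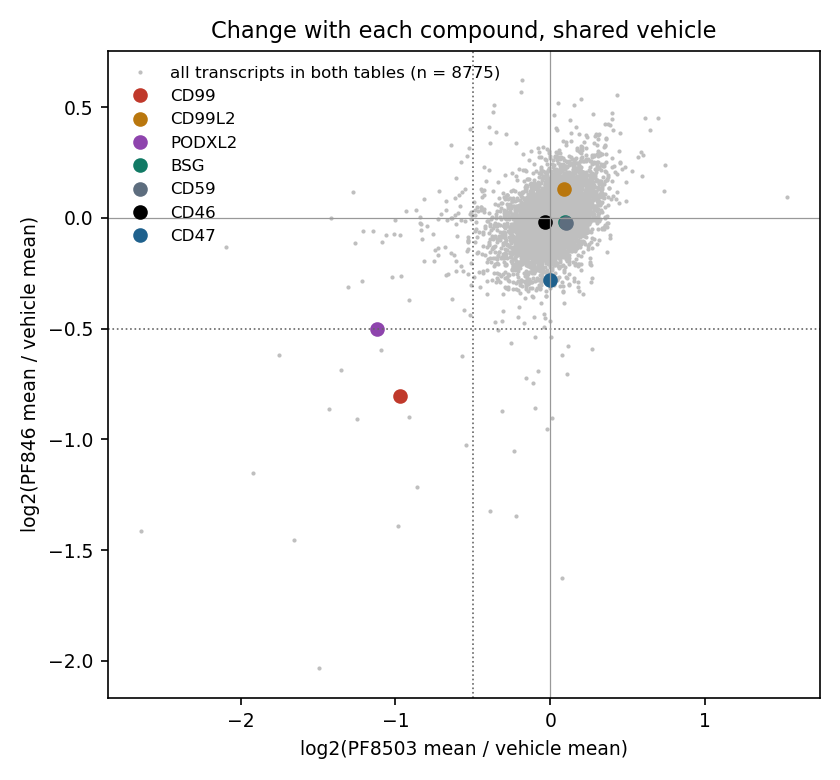
Log2 ratio to vehicle with PF8503 (horizontal) and with PF846 (vertical) for the 8775 transcripts in both tables (grey) and the 7 genes (coloured); dotted lines mark -0.5, and the vehicle libraries are the same on both axes. CD99 (-0.97, -0.81) and PODXL2 (-1.12, -0.50) lie at lower left, CD47 (-0.00041, -0.28) directly under the middle, and the other 4 in the main cloud.

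In the plane of these ratios, the transcripts nearest to CD99 included USO1 (a Golgi tether, at a distance of 0.11), TGFBI (a secreted matrix protein, 0.24), PODXL2 (0.34) and DAD1 (a subunit of oligosaccharyltransferase, 0.40). Those nearest to PODXL2 were TGFBI (0.099), KDELR3 (0.24), MKKS (0.24), BRF1 (0.25) and CTBS (0.27). The likeness rests on 2 values per transcript, the ratios with PF8503 and PF846. Few transcripts lie in that region of the plane, as its plot shows. The N-termini of these neighbours were not alike in hydropathy: the highest mean over 8 residues was 3.05 for TGFBI and 3.40 for KDELR3, but 0.875 for USO1 and 1.41 for MKKS.

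A hydrophobic stretch near the N-terminus was common to CD99, PODXL2 and the other 5 genes. The highest mean Kyte-Doolittle value over 8 residues, within the first 35, was 2.93 for CD99 and 2.8 for PODXL2. For CD47 it was 2.83, for CD99L2 2.94, for BSG 2.98 (residues 2 to 9), for CD46 3.11 (residues 19 to 26) and for CD59 3.53 (residues 12 to 19). PODXL2 thus had the lowest peak of the 7, next to CD47 and CD99. PODXL2 and CD46 had their stretch farther from the start than the others. Leucine filled 11 of the first 35 residues of PODXL2 and 9 of those of CD99. It filled 6 in BSG, CD59, CD46 and CD47 and 5 in CD99L2. Alanine did not divide the genes this way: 7 in CD99 and 5 in PODXL2, against 8 in BSG, 5 in CD99L2, 4 in CD47, 3 in CD46 and 1 in CD59. The leucine count was not planned and was not set beside that of all proteins, so nothing is read from it.

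**Figure D4:**
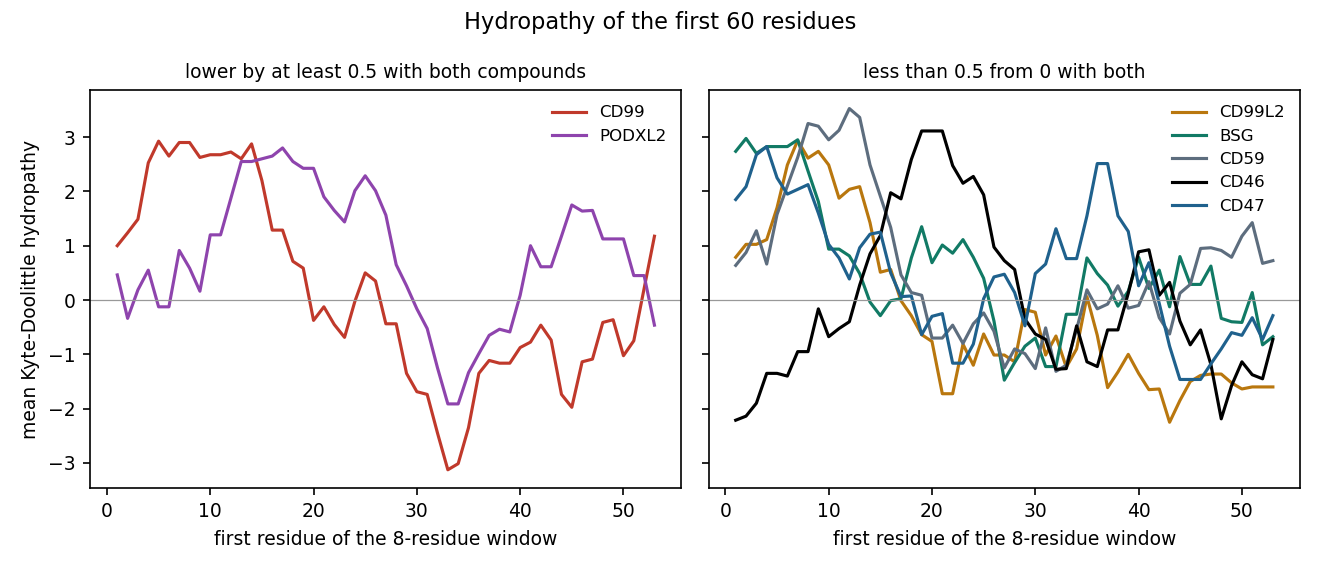
Mean Kyte-Doolittle hydropathy over 8 residues along the first 60 residues of each protein, for CD99 and PODXL2 (left) and the other 5 genes (right); the horizontal axis gives the first residue of the window. CD99 peaks at 2.93 from residue 5 and PODXL2 at 2.8 from residue 17, and all 5 curves on the right reach peaks of 2.83 to 3.53 within the first 35 residues.

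Of all transcripts with a protein, 785 in the PF8503 table held a stretch at least as hydrophobic as that of PODXL2 (2.8) in the first 35 residues. Of these, 26 (3.31%) were lower by at least 0.5 with PF8503, against 70 of 8259 (0.848%) without such a stretch. With PF846 it was 15 of 756 (1.98%) against 20 of 7975 (0.251%). The limit of 2.8 was set as the lowest peak of the 7 genes, so all 7 fall in the group with the stretch by the choice of limit. Most transcripts of that group were not low: its median log2 ratio was 0.035 with PF8503 and -0.015 with PF846. These shares include CD99 and PODXL2 themselves and carry no test.

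Beyond the N-terminus, the chains of CD99 and PODXL2 differed in serine and threonine and in sequons (N-X-S/T, the acceptor of N-linked sugars). CD99 had 8.11% serine and threonine, lower than in all but 4.34% of proteins, and 0 sequons. PODXL2 had 15.0% serine and threonine and 4 sequons. Proline was near in CD99 and PODXL2, at 9.73% and 8.26%, and so were acidic residues, at 15.7% and 17.9%. Among the other 5, CD99L2 had 0 sequons, CD59 1, CD46 3, BSG 5 and CD47 6, so 0 sequons were counted in CD99 and in CD99L2, and several both in PODXL2 and in genes close to vehicle. The most hydrophobic 19 residues after the signal, where the membrane span of a type I protein would be, began at residue 129 in CD99 and at residue 503 in PODXL2.

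Per codon, the 7 genes were read at very different levels with vehicle. The vehicle mean of the PF8503 table divided by the codons of the protein, less the 20 left out at the ends, was 33.2 for BSG, 8.34 for CD99, 8.27 for CD59, 7.80 for CD46, 1.53 for CD47, 1.24 for PODXL2 and 0.622 for CD99L2. The median over 9044 transcripts was 0.866, and BSG stood 53.5 times above CD99L2. CD99, CD59 and CD46 are too near each other to be put in order without a spread between libraries, and so are CD47 and PODXL2. Where the counting began later in the chain, as it did for PODXL2 with PF8503, the level per codon is too low by the codons left out, and a late start common to both compounds would not show in the means. The low ratios were thus found in 1 gene of high level and 1 of middle level, and CD59 and CD46, read at about the level of CD99, lay close to vehicle.

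The partners of these proteins and other surface proteins were taken as 7 lists that held 45 genes with values beside the set itself. Of the 45, 1 was lower by at least 0.5 with PF8503 and 0 with PF846, and 0 were higher with either. Their median log2 ratio was 0.022 with PF8503 and -0.0028 with PF846, close to the medians of all transcripts given above. The 1 gene was MPZL1. Beside the 1.08% of all transcripts that were lower with PF8503 and the 0.396% with PF846, these counts are near the background and say nothing particular about surface proteins.

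Of the CD99, CD34 and sialomucin family, 2 genes had values outside the set. CD164, a sialomucin of haematopoietic and other cells, had log2 ratios of 0.033 with PF8503 and -0.070 with PF846, and CD24, a GPI-anchored mucin-like protein, had -0.0086 and 0.035. Their vehicle means in the PF8503 table were 2216 and 2102.

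Of the complement regulators and GPI-anchored proteins, 4 had values, with medians of -0.21 (PF8503) and -0.13 (PF846). The 2 lowest were CFI, the secreted protease that cleaves C3b with CD46 as a cofactor, and CD55, the decay-accelerating factor. CFI had 3081 with vehicle and 2235 with PF8503 (log2 -0.46), and 2820 and 2380 in the PF846 table (log2 -0.24). CD55 had 78.9 and 59.4 with PF8503 (log2 -0.41), and 72.2 and 57.0 with PF846 (log2 -0.34). Both were past the 0.25 size with PF8503 though not past 0.5, while CD59 and CD46 themselves had ratios from -0.035 to 0.10.

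Of the basigin family with its transporters and cyclophilins, 8 had values, with medians of 0.096 and 0.024. SLC16A3, a lactate transporter that basigin carries to the surface, had the highest ratio with PF8503 (179 to 225, log2 0.33) and 0.11 with PF846. SLC3A2, the heavy chain of an amino acid transporter, had 0.16 and 0.12. The CD47 list had 3 such genes, with medians of 0.14 and 0.0022: SIRPA, the receptor of CD47, had 0.14 with PF8503 and 0.064 with PF846, and QPCTL, which modifies CD47 for SIRPA binding, had 0.14 and -0.018. CD47 with PF846 was thus lower than each of its 3 listed partners.

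Of the 7 linkers of CD44 and podocalyxin to actin and their companions, medians were 0.069 and -0.0028. The scaffold SLC9A3R2 had 0.21 and 0.075, and the syndecans SDC1 and SDC4 had 0.18 and 0.069 with PF8503 and 0.086 and -0.081 with PF846. Integrins, 8 with values, had medians of -0.018 and -0.011. ITGB8 was the lowest of them with both compounds, at -0.20 and -0.11, with ITGA5 at -0.10 with PF8503 and ITGB5 at -0.11 with PF846.

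Of 13 immunoglobulin-domain surface glycoproteins, medians were 0.065 and -0.0012. MPZL1, a receptor of the myelin protein zero family, had 623 with vehicle and 369 with PF8503 (log2 -0.76), and 883 with vehicle and 840 with PF846 (log2 -0.073). Its vehicle means show that fewer codons were counted for PF8503. MPZL1 was thus low with PF8503 and near vehicle with PF846, over regions that differ. CD276 had 0.25 with PF8503 and -0.0012 with PF846, PVRL1 -0.20 and -0.22, and CD58 -0.0037 and 0.15.

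**Figure D5:**
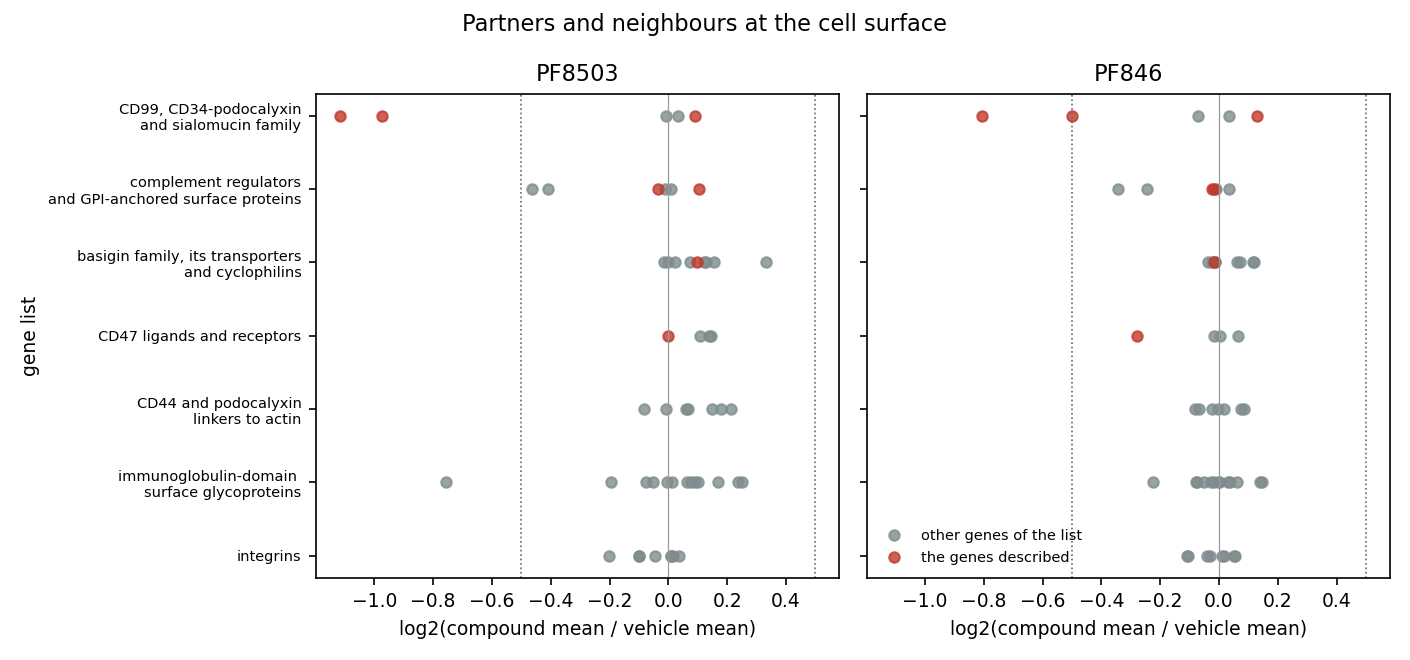
Log2 ratio of compound to vehicle for each gene with values in the 7 lists, with PF8503 (left) and PF846 (right); red points are the 7 genes described above, grey points the 45 others, and dotted lines mark 0.5 in either direction. The grey point beyond -0.5 with PF8503 is MPZL1 (-0.76), and with PF846 no grey point lies beyond -0.5.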

How the data were processed

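Ribosome-protected fragments of Huh-7 cells were sequenced in 9 libraries. As stated in the study's methods, reads were aligned with Bowtie to the UCSC/GENCODE v24 canonical coding transcripts of GRCh38, keeping alignments to 1 position, and transcripts with more than 30 counts in the region 3′ of the largest difference, or from 10 codons after the start, were passed to DESeq, whose versions are not given in the sources used here. Each deposited table holds a signal, the authors' mean of counts divided by size factors, for vehicle and for 1 compound. It also holds the authors' own fold changes and p-values, which were not used. The sums of the means were 10521744 with vehicle and 10488180 with PF8503, and 9627557 with vehicle and 9622385 with PF846. Depth per library is not given in the sources used here, so no interval for counting error is given. The vehicle column was identified by its constant ratio between tables.

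From these, log2(compound mean / vehicle mean) was computed with Python 3.11.15, numpy 2.4.6 and pandas 2.3.3, without a pseudocount or filter, and the computation was tested on simulated data. With means alone no test was made. A size of 0.5 was used for all counts. Protein features came from GENCODE v44 MANE Select or canonical coding sequences (same build, 98.8% of 9221 symbols matched), translated with biopython 1.88 in place of the RefSeq proteins planned. The transcript counted may be another isoform. Gene positions came from RefSeq on GRCh38. Identity was counted over aligned residues only, leaving out every column with a gap, and gaps at the ends were not penalized. Figures were drawn with matplotlib 3.10.9. All 9 genes were named, and of the lists those past 0.5 and the 2 farthest from 0 with each compound, and, for CD99 and PODXL2, the 5 nearest transcripts, of which 1 is not reported here. The genes and lists were chosen with earlier results of these data known. Alternatives were another scaling, 10 added to each mean, sizes of 0.25 and 1, a mean of at least 100, the vehicle mean of the other table, a region tolerance of 0.002, and hydropathy over 12 of 50 residues. A log2 ratio was taken to move if it changed by more than the robust SD of all transcripts, 0.11 for PF8503 and 0.083 for PF846.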

Additional observations from a re-analysis of the deposited data

How the results depend on the processing

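No paired analysis was possible because the tables hold means over libraries, and for the same reason leaving out each replicate was not run. Of 372 alternative values 349 stayed and 23 moved. The sign turned in 2 of them, both close to 0: CD47 with PF8503 went from -0.00041 to 0.0042 when each condition was scaled to its sum, and the sialomucin list median with PF8503 from 0.012 to -0.00064 when centred on the median. All 70 alternative log2 ratios of the genes stayed within the robust SD, the largest move being 0.033, for PODXL2 with the vehicle mean of the other table. The count of genes lower with PF846 went from 2 to 1 when each condition was scaled to its sum (PODXL2 at -0.4998) and to 1 with 10 added (PODXL2 at -0.49). PODXL2 was also past the limit no longer with the vehicle mean of the other table (-0.47). At a size of 0.25 the count of lower genes was 2 with PF8503 and 3 with PF846, where CD47 was the added gene. At a size of 1 the count was 1 with PF8503 and 0 with PF846. Over all transcripts, 387 were lower and 347 higher with PF8503 at a size of 0.25, and 188 and 147 with PF846. At a size of 1 these were 23 and 1, and 11 and 0. Transcripts higher by 0.5 numbered 13 and 4 with 10 added and 6 and 4 at a mean of at least 100, against 22 and 7. That filter, which removes CD55, moved the median of the complement list from -0.21 to -0.012 with PF8503 and from -0.13 to -0.0084 with PF846. At the tolerance of 0.002, 134 transcripts had different regions. What limits all values is that no spread between libraries was used, that a stall and fewer initiating ribosomes or less mRNA cannot be told apart from the reads of one region, and that each row rests on 1 transcript.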
